A study of Mus musculus with 6 samples.

Results

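Alternative activation is the state that macrophages take on when they are exposed to the type 2 cytokines interleukin-4 (IL-4) and IL-13, or to IL-10. The report describes 10 marker genes of that state, chosen by symbol among the 27240 genes of the deposited table: Mrc1, Chil3, Retnla, Tgm2, Il4ra, Cd163, Mgl2, Il10, Il10ra and Cd200r4. All 10 symbols were found, each with 1 row. Poly(A) RNA was sequenced from primary macrophages of the mouse peritoneum, phagocytes that are collected by rinsing the abdominal cavity, in 3 libraries labelled wild type and 3 labelled knockout. Every library of both genotypes came from cells labelled as treated with oxLDL, an oxidised low-density lipoprotein that macrophages take up. The labels give no strain, age, dose or time, and they name neither the deleted part of the gene nor the cells in which it was deleted. The series title names the kinase DCLK1.

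IL-4 and IL-13 bind receptors that contain the IL-4 receptor alpha chain (Il4ra), and Janus kinases then phosphorylate the transcription factor STAT6, which enters the nucleus. Typical STAT6 targets in mouse macrophages are Retnla, Chil3, Mrc1, Mgl2 and Tgm2. IL-10 acts through a receptor of the chains Il10ra and Il10rb and the transcription factor STAT3, and Cd163 is a scavenger receptor gene that IL-10 and glucocorticoids raise. Without oxLDL-free cells in the comparison, the values below say nothing about a response to oxLDL, and without cytokine-treated cells nothing about a response to IL-4 or IL-10.

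RefSeq promoter windows (GRCm38.p6, 250 bases before to 50 after a gene's start) were matched for 7 of the 10 genes: Cd163, Cd200r4, Chil3, Il4ra, Mgl2, Mrc1 and Retnla. They are shown because IL-4-responsive genes carry STAT6-type elements, and C/EBPβ, encoded by Cebpb, binds beside STAT6 at some of them. The windows were searched on both strands for TTCNNNNGAA (the spacing bound by STAT6), TTCNNNGAA (the spacing of other STAT factors) and TTGCNNAA (a C/EBP-type element). These letters occur in 6.95%, 8.30% and 10.8% of all 32851 promoter windows of that length. Retnla held a TTCNNNNGAA match and a TTGCNNAA match, and Chil3 held a TTCNNNGAA match. The windows of Cd163, Il4ra, Mgl2 and Mrc1 held none of these letters. The Cd200r4 window held a TTCNNNNGAA and a TTGCNNAA match, but it surrounds a start that lies 8995 bases inside the deposited gene, so it does not flank the start of the gene as deposited and is not shown. The other 2 stretches with matches are printed 5′ to 3′ on the strand of the gene, with the matches in capitals.
Retnla (chr16:48842444-48842502, plus strand): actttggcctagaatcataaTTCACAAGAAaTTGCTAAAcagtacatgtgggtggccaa
Chil3 (chr3:106167708-106167756, minus strand): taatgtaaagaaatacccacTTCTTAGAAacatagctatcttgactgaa
In the Retnla window the STAT6-type match begins at -145 relative to the RefSeq start, which lies 58 bases inside the deposited gene, and the C/EBP-type match at -134, with a single base between them. The match in Chil3 begins at -172. A match is a description of the letters only, and binding was not measured.

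Between 68053008 and 79090732 counts were obtained per library. In CPM, counts scaled by TMM to a shared library size, 1 count was worth 0.0127 to 0.0147, and a count of 0 allowed a level of up to 3 counts, or 0.0382 to 0.0441 CPM, with counting error alone considered. Dclk1, the gene in the series title, had 7.27, 6.70 and 7.43 CPM in the wild-type libraries, against 5.55, 5.89 and 5.15 CPM in the knockout libraries (edgeR adjusted p = 0.332), a weak check of the genotype labels. The 7 macrophage markers reported (Adgre1, Csf1r, Cd68, Itgam, Mertk, Fcgr1 and Lyz2) had at least 3 counts in every library. Lyz2, the lysozyme gene, fell from 16349 ± 652 to 7969.6 ± 42.0 CPM (SD, n = 3 each, edgeR adjusted p = 6.5e-06), and the other macrophage markers reported did not pass. Whether replicates are separate animals or cultures is not labelled. The p-values therefore reflect the spread among these 6 samples, which may be technical. In bulk RNA of this kind, fewer cells of a type and less RNA per cell cannot be told apart.

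The 10 markers fell into an abundant and a rare set on the length-scaled unit FPKM (fragments scaled for gene length and library size, as deposited), which allows levels to be compared between genes. Chil3, Tgm2, Cd200r4, Mrc1, Il4ra and Il10ra were above 10 FPKM in every library, and Retnla, Cd163, Mgl2 and Il10 were under 5 FPKM in every library. Chil3 had the highest mean, 129.5 ± 7.75 FPKM in wild-type and 115 ± 0.713 FPKM in knockout libraries (SD, n = 3 each), and 1.86% of the tested genes had a higher mean level. Tgm2 (78.2 and 70.0 FPKM in wild type and knockout) and Cd200r4 (74.5 and 68.9 FPKM) followed, with library ranges that overlapped each other in both genotypes. Mrc1 (20.8 and 21.8 FPKM) and Il4ra (20.3 and 19.9 FPKM) had overlapping ranges in wild-type but not in knockout libraries. The range of Il10ra (17.4 and 22.1 FPKM) overlapped that of Il4ra in both genotypes.

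**Figure D1:**
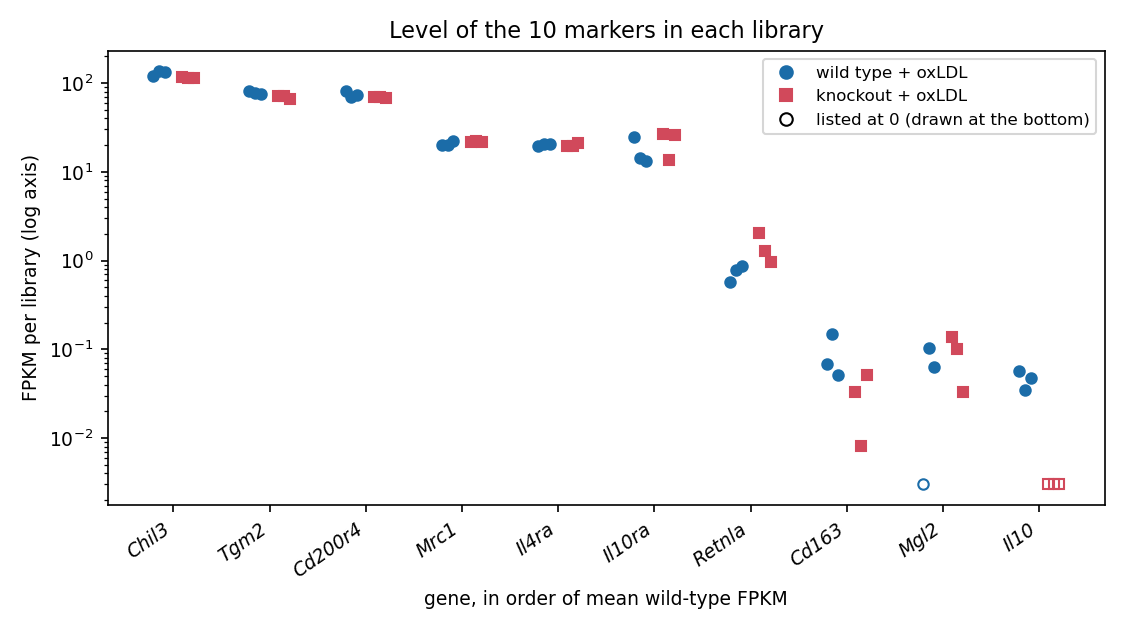
FPKM of each marker (x axis, ordered by mean wild-type level) in each library on a log axis, with wild-type libraries as circles and knockout libraries as squares; open symbols at the bottom are libraries listed at 0. The 6 abundant markers lie above 10 FPKM in every library, Retnla lies near 1 FPKM, and Cd163, Mgl2 and Il10 lie far lower.

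The gap below Il10ra was wide. Retnla, which encodes the secreted protein RELMα, was at 0.743 ± 0.145 FPKM in wild-type and 1.42 ± 0.547 FPKM in knockout libraries (SD, n = 3 each), and 62.8% of tested genes had a higher mean. Cd163 was at 0.0889 and 0.0310 FPKM, and Mgl2, which encodes a galactose-binding lectin, at 0.0556 and 0.0910 FPKM. The ranges of Cd163 and Mgl2 overlapped in both genotypes. Il10 was at 0.0466 FPKM in wild-type libraries and listed at 0 in the 3 knockout libraries. Mean wild-type FPKM of Chil3 was 2779 times that of Il10. Highly expressed markers were membrane receptors (Mrc1, Il4ra, Il10ra, Cd200r4), the transglutaminase gene Tgm2 and the chitinase-like gene Chil3, while Retnla and Mgl2, which are also STAT6 targets, were among the rare markers. Cd163, also a receptor gene, was rare too.

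In the comparison of knockout with wild type, 9 of the 10 markers had enough counts to be tested (Il10 did not). None of these 9 passed at an adjusted p under 0.05 in edgeR's quasi-likelihood test, beside 0.0677% of the 16239 genes tested. At an unadjusted p under 0.05 there were 2 markers, Tgm2 and Chil3, both lower in knockout, beside 10.4% of all tested genes (5.71% lower and 4.73% higher). DESeq2 called 1, Tgm2, as lower, beside 2.81% of all tested genes in either direction and 1.66% lower. It gave no adjusted p for Retnla, Cd163 and Mgl2, so these could not pass. The shares are over all 16239 genes, with or without an adjusted p. Of the tested markers 5 had a fitted value below 0 and 4 above, beside 50.5% of all tested genes below 0. Their median log2 fold change was -0.042, and that of all tested genes was -0.0019. The CPM values of the 2 genotypes did not overlap for 5 of the 9 (4 lower and 1 higher in knockout), where 17.6% of all tested genes did not overlap (8.89% lower and 8.68% higher). Among the abundant markers Il10ra had the widest interval (-0.39 to 1.05), and the differences of the rare markers rested on few counts.

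**Figure D2:**
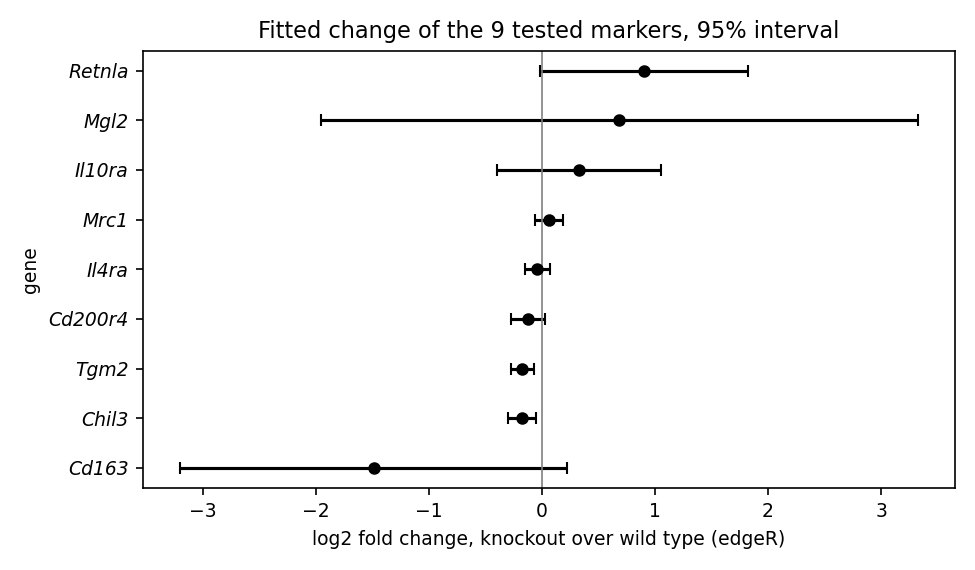
Log2 fold change of knockout over wild type from edgeR (x axis) for the 9 tested markers (y axis), with points for the fitted value and bars for the 95% interval. The intervals of Tgm2 and Chil3 lie below 0, and those of Cd163 and Mgl2 are the widest, from -3.20 to 0.22 and from -1.95 to 3.33.

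Tgm2 (ENSMUSG00000037820, chromosome 2, 158116402 to 158146436, minus strand) encodes transglutaminase 2, a protein-crosslinking enzyme. Wild-type libraries had 415, 401 and 392 CPM of it, and knockout libraries 364, 368 and 341 CPM. Each knockout library lay below each wild-type library. The means were 402.7 ± 11.9 and 357 ± 14.8 CPM (SD, n = 3 each), a knockout level of 88.8% of wild type. EdgeR fitted a log2 fold change of -0.17 (SE 0.0429, interval -0.27 to -0.072 at the 95% level), and it did not pass over all genes (adjusted p = 0.205). With DESeq2 the adjusted p was 0.044, and over all alternatives it ranged from 0.044 to 0.471. The exact permutation p (two-sided) was 0.1, the smallest that 3 against 3 libraries can give. In the GENCODE M21 annotation 633 exonic bases of Tgm2 also belong to Gm20412, which had 0 counts in every library, and the opposite-strand gene Rprd1b overlaps its 3′ part. Rprd1b had 8.50, 8.38 and 24.0 CPM in the wild-type libraries and, in the knockout libraries, 24.2, 6.47 and 8.17 CPM. Whether strand was used in counting is not stated. The highest Rprd1b levels were in wild-type replicate 3 and knockout replicate 1. The part of Rprd1b reads in the Tgm2 values was not tested. Among the relatives of Tgm2, Tgm1 was at 3.55 to 4.97 CPM and F13a1 at 15.5 to 20.6 CPM over the libraries.

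Chil3 (ENSMUSG00000040809, chromosome 3, 106147554 to 106167564, minus strand) encodes the chitinase-like protein Ym1, which is secreted by macrophages and has no chitinase activity. Wild-type libraries had 219.6, 248 and 241 CPM of it, and knockout libraries 210.3, 208 and 208.0 CPM. The knockout libraries lay within a narrow band below all wild-type values, of which replicate 1 was the lowest. It had a log2 fold change of -0.18 (SE 0.0518, 95% interval -0.30 to -0.057), a knockout level of 88.4% of wild type (edgeR adjusted p = 0.276). The log2 fold change was -0.23 without wild-type replicate 1 (edgeR adjusted p = 0.186) and -0.14 without wild-type replicate 2 (edgeR adjusted p = 0.458). Over all alternatives the adjusted p ranged from 0.084, with DESeq2, to 0.539. Of the 50-base sequences of Chil3 transcripts, 26.9% also occur in transcripts of other genes, 16.9% in Chil4. Chil4, which encodes the near relative Ym2, had 1 count in knockout replicate 2 and 0 in the other libraries, and how shared reads were assigned is not stated. Among other chitinase-like genes, Chil1 was at 0.109 to 0.735 CPM and Chit1 at 0 to 0.164 CPM over the libraries.

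Cd200r4 (ENSMUSG00000062082, chromosome 16, 44811733 to 44839134, plus strand) encodes an activating relative of the inhibitory receptor for CD200. Wild-type libraries had 186, 158.3 and 166 CPM of it, and knockout libraries 157.5, 158.0 and 153.0 CPM. The genotypes were separated by the small gap between wild-type replicate 2 and knockout replicate 2 on this scale, and on the deposited FPKM scale they overlapped. The fitted log2 fold change of -0.12 (SE 0.0635, edgeR adjusted p = 0.556) became -0.055 without wild-type replicate 1, the highest library. Cd200r1, the inhibitory receptor, had means of 203 ± 18.1 and 215 ± 12.4 CPM in the wild-type and the knockout libraries (SD, n = 3 each, edgeR adjusted p = 0.762). Its ligand gene Cd200 was at 116 ± 3.49 and 105.3 ± 2.86 CPM, with all knockout libraries below all wild-type libraries (edgeR adjusted p = 0.340). Cd200r2 and Cd200r3 were rare, at 0.102 to 0.574 CPM and 0 to 0.260 CPM, and 2.99% of the 50-base sequences of Cd200r4 also occur in Cd200r2.

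Mrc1 (ENSMUSG00000026712, chromosome 2, 14229392 to 14332057, plus strand) encodes the mannose receptor CD206, an endocytic lectin. Wild-type libraries had 141, 145 and 158 CPM of it, and knockout libraries 153, 158 and 153 CPM. The genotypes overlapped. Its log2 fold change was 0.060 (SE 0.0521, 95% interval -0.062 to 0.18, edgeR adjusted p = 0.756), so that the interval of the fold ran from 0.958 to 1.13. None of its 50-base sequences occurs in transcripts of another gene. The related lectin gene Mrc2 was at 0.897 to 1.95 CPM.

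**Figure D3:**
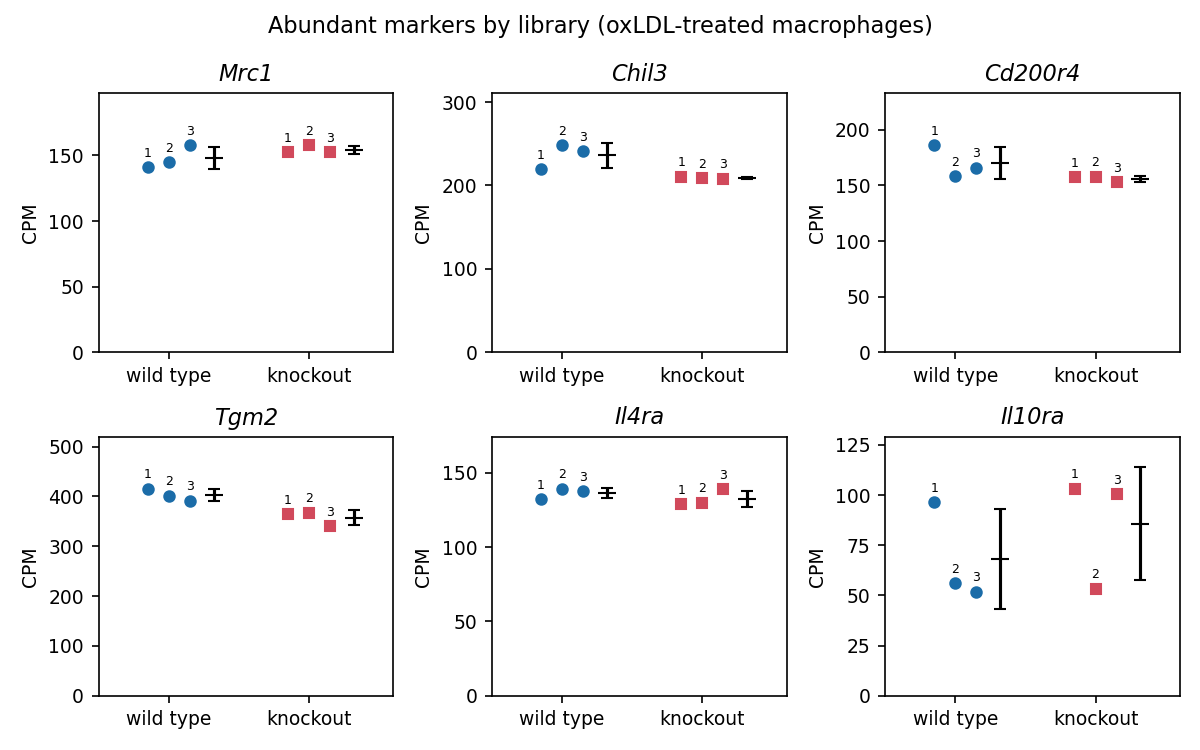
CPM (y axis, from 0) of the 6 abundant markers by genotype, with points for libraries numbered by replicate and bars for the mean and SD of 3 libraries. Tgm2 and Chil3 are lower in all 3 knockout libraries, Mrc1 and Il4ra overlap between genotypes, and Il10ra takes 2 levels that do not follow genotype.

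Among the receptor genes of the pathway, Il4ra (ENSMUSG00000030748, chromosome 7, 125552120 to 125579474, plus strand) had 132, 139 and 137 CPM in the wild-type libraries. In the knockout libraries it had 129, 129.8 and 139 CPM. Knockout replicate 3 lay among the wild-type values. Il4ra had a log2 fold change of -0.042 (SE 0.0476, 95% interval -0.15 to 0.069, edgeR adjusted p = 0.820), a fold between 0.899 and 1.05 over the interval. The antisense gene Gm44876 overlaps 571 of its exonic bases in the annotation. The 2 chains that pair with it had non-overlapping values, lower in knockout, and neither passed over all genes. Il2rg, the common gamma chain, was at 311 ± 14.5 and 282 ± 7.44 CPM (SD, n = 3 each, edgeR adjusted p = 0.332; DESeq2 adjusted p = 0.169). Il13ra1, the partner for IL-13, was at 54.2 ± 2.80 and 46.8 ± 2.36 CPM (SD, n = 3 each, edgeR adjusted p = 0.299; DESeq2 adjusted p = 0.115). The decoy receptor gene Il13ra2 had 0 counts in every library.

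Il10ra (ENSMUSG00000032089, chromosome 9, 45253837 to 45269149, minus strand) encodes the ligand-binding chain of the IL-10 receptor. Wild-type libraries had 96.5, 55.9 and 51.9 CPM of it, and knockout libraries 103, 53.2 and 100.5 CPM. Wild-type replicate 1 and knockout replicates 1 and 3 were high, and the other libraries, from both genotypes, were low. The highest library was 1.99 times the lowest, against 1.08 to 1.22 times for the other 5 abundant markers. Its within-group SD of log2 CPM was 0.516, where the median over the 8226 genes with a mean of at least 10 CPM was 0.0863 and 2.36% of them had a larger SD. Between genotypes the log2 fold change was 0.33 (SE 0.309, edgeR adjusted p = 0.776), and leaving out a single library moved it between 0.17 and 0.67. The deposited FPKM values take the same 2 levels, and count and FPKM give the same gene length in every library (3880 to 3910 bases), so both units hold the split. No 50-base sequence of Il10ra occurs in another gene's transcripts, and no annotated exon of another gene overlaps its exons. Lymphocytes also express Il10ra. B cell markers summed to 4.91, 4.32 and 5.06 CPM in the wild-type and 5.27, 5.11 and 6.40 CPM in the knockout libraries. T and NK cell markers summed to 16.4, 12.9 and 13.2 CPM in the wild-type and 10.6, 9.94 and 10.99 CPM in the knockout libraries. Within each genotype the T and NK cell sum was higher in the libraries high for Il10ra, while all knockout sums lay below all wild-type sums. The part of lymphocytes in the split was not tested.

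The second receptor chain gene, Il10rb, had 172, 179.5 and 181 CPM in the wild-type libraries, against 98.6, 174 and 176 CPM in the knockout libraries (edgeR adjusted p = 0.740). Knockout replicate 1 was the low library, and without it the log2 fold change was -0.020 in place of -0.25. Knockout replicate 1 was also the highest library for Il10ra, whereas the other libraries high for Il10ra (wild-type replicate 1 and knockout replicate 3) did not stand apart for Il10rb.

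The rare markers were read from few counts. Retnla (ENSMUSG00000061100, chromosome 16, 48842551 to 48844461, plus strand) had 27, 40 and 46 counts in the wild-type libraries, against 101, 63 and 47 in the knockout libraries, or 0.397, 0.538 and 0.585 CPM against 1.35, 0.861 and 0.642 CPM. Each knockout value lay above each wild-type value, with knockout replicate 3 close to wild-type replicate 3. Its log2 fold change was 0.91 (SE 0.393, 95% interval -0.015 to 1.83, edgeR adjusted p = 0.486). Without knockout replicate 1 it was 0.57, with an adjusted p of 0.751. The relatives Retn and Retnlg were at 0 to 0.107 CPM and at 0 counts.

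Cd163 (ENSMUSG00000008845, chromosome 6, 124304656 to 124330527, plus strand) had 28, 68 and 25 counts in the wild-type libraries, against 16, 4 and 23 in the knockout libraries. On the CPM scale wild-type replicate 3 (0.318) lay just above knockout replicate 3 (0.314). It had a log2 fold change of -1.49 (SE 0.732, 95% interval -3.20 to 0.22, edgeR adjusted p = 0.544), and it was -0.90 without wild-type replicate 2 and -1.05 without knockout replicate 2. The relative Cd163l1 was at 0 to 0.214 CPM.

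Mgl2 (ENSMUSG00000040950, chromosome 11, 70130329 to 70137550, plus strand) had 0, 18 and 13 counts in the wild-type libraries, against 25, 18 and 6 in the knockout libraries. The genotypes overlapped, and the count of 0 in wild-type replicate 1 allows up to 0.0441 CPM. Its log2 fold change was 0.69 (SE 1.13, edgeR adjusted p = 0.891), and no direction could be read at this depth. Leaving out wild-type replicate 1, the library with no Mgl2 counts, gave 0.12, and leaving out replicate 2 of that genotype gave 1.38. The neighbouring lectin gene Clec10a (Mgl1), with which 12.2% of the 50-base sequences of Mgl2 are shared, was at 5.23 ± 0.188 and 5.71 ± 0.269 CPM (SD, n = 3 each, edgeR adjusted p = 0.770).

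Il10 (ENSMUSG00000016529, chromosome 1, 131019845 to 131024974, plus strand) had 6, 4 and 6 counts in wild-type and 0 in each knockout library, and was left out of the fit by the filter on low counts. The summed 16 wild-type counts (95% Poisson interval 9.15 to 26.0, counting error only) stood against 0. With the floor of 3 counts taken over the knockout group, they give a bound of at least 5.34-fold lower in knockout. Spread between libraries beyond counting error is not part of this bound. This bound was 3.53 without knockout replicate 1 and 3.57 without either of the other knockout libraries, and 3.05 at the lower end of the Poisson interval. The exact permutation p (two-sided) was 0.1, which is also the smallest possible here. With no filter the unadjusted edgeR p was 0.0246 and the adjusted p was 0.558, so the difference did not pass. The level in wild-type libraries, 0.0724 CPM over the group, was within a few counts of the floor.

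**Figure D4:**
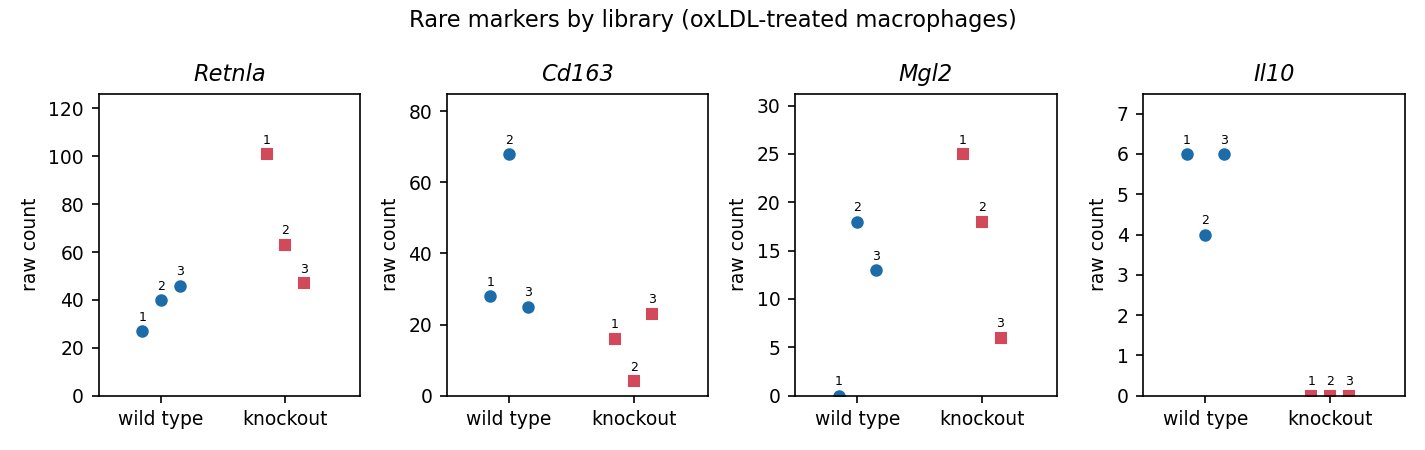
Raw counts (y axis, from 0) of the 4 rare markers by genotype, 1 point per library numbered by replicate. Retnla counts are 27 to 46 in wild-type and 47 to 101 in knockout libraries, Cd163 and Mgl2 scatter widely within a genotype, and Il10 has 4 to 6 counts in wild-type and 0 in knockout libraries.

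Other genes of these pathways were taken from lists that were chosen with earlier results of these data known. The counts below describe these lists and test nothing about a pathway. Of 24 genes of IL-4 and IL-13 signalling, 22 were tested and 0 passed in edgeR, with 7 lower and 0 higher at an unadjusted p under 0.05, beside 5.71% lower and 4.73% higher of all tested genes. The groups did not overlap for 9 of these 22, 8 lower and 1 higher, beside 8.89% and 8.68% of all tested genes. Their median log2 fold change was -0.055, where that of all tested genes was -0.0019. Stat6 itself was at 242 ± 6.75 and 250.1 ± 7.58 CPM (SD, n = 3 each, edgeR adjusted p = 0.748; DESeq2 adjusted p = 0.796). The kinase gene Jak1 was at 466 ± 11.6 and 455 ± 6.14 CPM (SD, n = 3 each, edgeR adjusted p = 0.781; DESeq2 adjusted p = 0.873). The list members with the smallest p were Ptpn6, which encodes the phosphatase SHP-1 that dampens cytokine receptor signalling, and Cebpb. Ptpn6 was at 288 ± 21.5 and 209 ± 10.8 CPM (SD, n = 3 each, edgeR adjusted p = 0.076; DESeq2 adjusted p = 2.7e-08). Cebpb had 144, 152 and 120.2 CPM in the wild-type libraries, against 77.6, 46.7 and 44.9 CPM in the knockout libraries, or 0.407 times its wild-type level (edgeR adjusted p = 0.087; DESeq2 adjusted p = 0.00067). In edgeR the adjusted p of Cebpb was 0.0039 without knockout replicate 1. It was 0.160 to 0.265 when any other single library was left out. Jak2 and Jak3 were at 0.815 and 0.784 times their wild-type level (edgeR adjusted p = 0.127 and 0.195; DESeq2 adjusted p = 0.0015 and 0.055). Ptpn6 and Jak2 each passed in 1 of 13 alternatives, DESeq2, and Cebpb passed in 2 of 13. The ligand gene Il4 was at 0.533 to 1.03 CPM, and Il13 had no row in the table.

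All 14 genes of the IL-10 list were tested and 0 passed in edgeR, with 3 lower and 0 higher at an unadjusted p under 0.05 (all tested genes: 5.71% lower and 4.73% higher) and a median log2 fold change of -0.099. Stat3 was at 138 ± 13.8 and 126.5 ± 6.35 CPM (SD, n = 3 each, edgeR adjusted p = 0.642; DESeq2 adjusted p = 0.603). The IL-10 response genes Socs3 and Bcl3, which other cytokines also induce, were at 0.790 and 0.801 times their wild-type level, each with non-overlapping values (edgeR adjusted p = 0.307 and 0.131; DESeq2 adjusted p = 0.117 and 0.0066). Bcl3 passed in 1 of 13 alternatives, DESeq2, and Socs3 in 0 of 13. The groups did not overlap for 4 of the 14, all lower, beside 8.89% lower and 8.68% higher of all tested genes. Fitted values were below 0 for 11 of the list and above 0 for 3, beside 50.5% of all tested genes below 0. Those 3, Il4i1, Maf and Zfp36, were at 1.28, 1.09 and 1.04 times their wild-type level, with overlapping values.

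**Figure D5:**
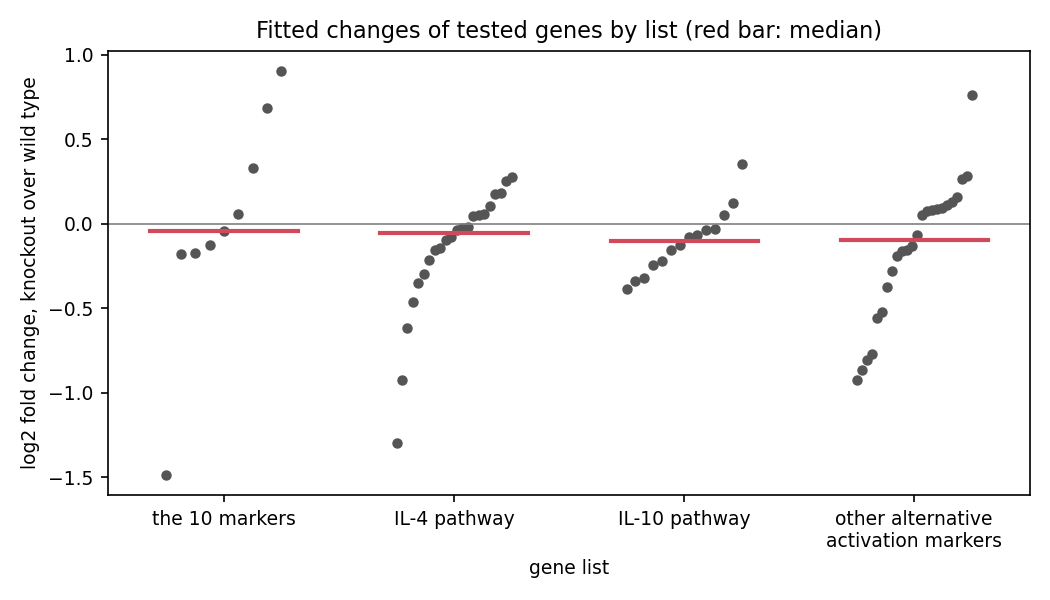
Log2 fold change of knockout over wild type (y axis) for each tested gene, by gene list (x axis), with genes as points sorted by value and a red bar at the median. The medians lie between -0.099 and -0.042, and points lie on both sides of 0 in every list.

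Of 33 other alternative activation markers, 24 were tested and 0 passed in edgeR, with 3 lower and 1 higher at an unadjusted p under 0.05, where 5.71% of all tested genes were lower and 4.73% higher, and a median log2 fold change of -0.097. The most abundant were Clec7a, which encodes the beta-glucan receptor Dectin-1, and Mmp12, a macrophage elastase gene. Clec7a was at 1250 ± 31.9 and 1118 ± 24.1 CPM (SD, n = 3 each, edgeR adjusted p = 0.105; DESeq2 adjusted p = 0.016), and Mmp12 at 541 ± 51.9 and 575 ± 23.5 CPM (SD, n = 3 each, edgeR adjusted p = 0.740; DESeq2 adjusted p = 0.729). Slc7a2, which encodes a transporter of arginine, was at 0.572 times its wild-type level (edgeR adjusted p = 0.076; DESeq2 adjusted p = 7.4e-10) and the growth factor gene Igf1 at 1.20 times (edgeR adjusted p = 0.118; DESeq2 adjusted p = 0.00096). Clec7a, Slc7a2 and Igf1 each passed in 1 of 13 alternatives, DESeq2. The classical IL-4 target Arg1, which encodes arginase 1, was at only 0.623 to 2.70 CPM, and Ccl17, a chemokine gene induced by IL-4, had 0 counts in every library. 

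Markers of other cells were measured in the same libraries. The summed level of 9 dendritic cell markers was 32.3 to 39.0 CPM in wild-type and 25.9 to 27.9 CPM in knockout libraries, that of 8 mesothelial and fibroblast markers 78.7 to 82.7 CPM and 59.5 to 73.4 CPM, and that of 9 markers of small peritoneal macrophages and monocytes 267 to 296 CPM and 232 to 234 CPM. Of the last sum, Itgax alone made up 87.2% in wild type and 82.7% in knockout, and of the 7 markers tested 4 had a fitted value below 0 and 3 above, among them Ly6c2 (7.86 ± 2.69 and 11.5 ± 1.69 CPM, SD, n = 3 each). The 10 markers of large resident peritoneal macrophages summed to 495 to 530.1 CPM and 563 to 572 CPM, of which Cd9 made up 95.8% and 95.7%. Of the 8 markers tested on this list, 2 had a fitted value below 0 and 6 above. The groups did not overlap for 2, both higher in knockout, beside 8.68% of all tested genes. The defining genes of large resident macrophages overlapped between genotypes. Gata6 was at 2.67 ± 0.220 and 2.01 ± 0.531 CPM, Timd4 at 1.22 ± 0.227 and 0.826 ± 0.237 CPM, and Icam2 at 1.03 ± 0.280 and 1.10 ± 0.220 CPM (SD, n = 3 each). None of the 4 sums overlapped between genotypes. The sums of macrophage, neutrophil, mast cell and basophil, and T and NK cell markers did not overlap either and were lower in knockout. B cell sums were higher in knockout, without overlap. Single genes made up much of several sums. Lyz2, itself lower in knockout, made up 78.3% of the macrophage sum in wild type and 63.3% in knockout. Ighm made up 78.7% and 66.1% of the B cell sum, and Csf3r 66.2% and 67.5% of the neutrophil sum. Kit, also on the dendritic cell list, made up 34.9% and 45.1% of the mast cell and basophil sum. Only the eosinophil sums overlapped. Fscn1 made up 48.5% of the dendritic cell sum in wild type and 44.2% in knockout. The part of these cells in the values of Tgm2, Chil3 and Cd200r4 was not tested. Of the dendritic cell, mesothelial and fibroblast, small and large macrophage lists 6, 8, 7 and 8 markers had at least 3 counts in every library. The 8 neutrophil markers, searched because neutrophils can also express Chil3, summed to 71.7 to 75.5 CPM and 66.5 to 68.2 CPM. Only 2 of them, Csf3r and S100a8, had at least 3 counts in every library, and the defining markers Ly6g and Retnlg had 0 counts throughout. Mast cell and basophil markers summed to 4.98 to 6.32 CPM and 3.02 to 4.25 CPM. Eosinophil markers summed to 0.479 to 1.20 CPM over all libraries.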

How the data were processed

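The deposited table holds, per the file headers, a count and an FPKM column for each of the 6 libraries. The submitters' processing notes name HISAT2 2.0. How genes were counted, and with which annotation and build, is not stated. The deposited counts are whole numbers per gene, and the FPKM values were scaled by the authors for length and library size, per the file headers. Another 12 columns match no sample and were not used. Deposited coordinates equal GENCODE M21 (GRCm38) for 9 of the 10 genes, and for Cd200r4 the end differs by 16 bases.

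Genes kept by filterByExpr (16239) were scaled by TMM and tested two-sided by quasi-likelihood in edgeR 4.0.16 (R 4.3.3), genotype as the only term, with Benjamini-Hochberg adjustment at 0.05. For symbols with several gene IDs, the ID with the most counts was used. Within groups, pairs of libraries differed far beyond sampling noise (chi-square over its degrees of freedom 36.7 to 42.8), so each was counted. On simulated counts for this comparison (15732 genes tested) edgeR called 64% of the 50 genes given a 4-fold change, 38% at 2-fold, 20% at 1.5-fold and 0% at the smallest size, 1.25-fold, along with 6 unchanged genes. The changed genes were drawn at random from all genes kept by the filter, so these are not rates for the markers. Alternatives were RLE scaling, no filter, DESeq2 1.42.0, limma 3.58.1 on log2(FPKM + 1) and log2(FPKM + 0.1), a replicate block and leaving out each library. A macrophage marker on the list is not reported here. The members and lists were chosen with earlier results of these data known. Named genes were all members and their relatives with a row, and from each list the genes past the threshold or else the 2 most abundant. Stat6, Stat3, Jak2, Jak3, Ptpn6, Cebpb, Socs3, Bcl3, Il4i1, Maf, Zfp36, Slc7a2, Igf1, Arg1, Ccl17, Il4, Rprd1b, Cd9, Itgax, Fscn1, Ly6c2, Gata6, Timd4, Icam2 and the motifs were chosen after values were seen.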

Additional observations from a re-analysis of the deposited data

How the results depend on the processing

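Of 111 values recomputed for the 9 tested markers, 111 kept their direction and 1 passed the threshold, Tgm2 with DESeq2. The alternatives reuse the same libraries, so a kept direction is not separate evidence of a difference. Mgl2, for which no direction could be read, is among these markers. The DESeq2 values of Retnla, Cd163 and Mgl2 had no adjusted p and could not pass. The number of markers past the threshold was 0 in edgeR, 1 with DESeq2 and 0 without any 1 library, and 5 markers had knockout below wild type without any 1 library. Over all genes 11 passed in edgeR, against 457 with DESeq2, 7 with no filter on low counts and 3 with limma on log2(FPKM + 1) without a filter. Leaving out single libraries gave 7 to 35 genes, the lowest when wild-type replicate 1 and the highest when knockout replicate 1 was left out, and 24 when it was wild-type replicate 2. The median log2 fold change of the tested markers ranged from -0.078 (without knockout replicate 3) to -0.022 when single libraries were left out. The replicate number as a block gave 3 genes and 0 markers. Deviations of same-numbered libraries from their group means correlated at 0.0397, 0.0497 and 0.0146, so the numbers were not taken to pair the libraries. The cause of these shifts was not tested. Depth limits Cd163, Mgl2, Il10 and, less so, Retnla. Limma with the FPKM filter gave no value for these genes.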
